A study of Mus musculus with 12 samples.

Results

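Described here are the YTHDF2 peaks of mouse M1-type macrophages whose summit, the point of highest enrichment, lies in coding sequence. They were found from the deposited list of YTHDF2 peaks after identical rows were dropped. Each peak took the class of the annotated feature that held its summit, and where features of several classes held it, the order was 3′ UTR, coding sequence, 5′ UTR, intron. This gave 6288 coding-sequence peaks among 17843 distinct peaks, of which 17621 had a summit in an annotated feature. The peaks lay in 3843 genes.

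The study mapped RNA bound by YTHDF2 and RNA carrying N6-methyladenosine (m6A) in bone-marrow-derived macrophages, and compared their RNA between genotypes. Its 12 libraries form 6 groups of 2: m6A immunoprecipitate and m6A input of Ythdf2 cKO (conditional knockout) cells, the same pair from WT cells, and a YTHDF2 immunoprecipitate with its own input from WT cells. All were from C57BL/6 mice; bone marrow was grown for 7 days in 20 ng/ml M-CSF, which turns it into macrophages, then given 100 ng/ml LPS and 20 ng/ml IFN-γ for 24 hours, so no group was unstimulated. For YTHDF2, 5 µg of antibody was used on the cell lysate, whereas m6A was pulled down from polyadenylated RNA cut to about 100 nucleotides. The labels do not give the Cre line behind the cKO, nor whether the libraries of a group came from separate mice or cultures, so p-values may measure technical spread only.

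m6A is a methyl mark placed on adenosines of mRNA by a writer complex, most often within short sequences around GGAC. It is known to gather in long internal exons and around the stop codon, so that coding sequence carries a good part of it. YTHDF2 is a cytoplasmic protein that binds the mark and recruits the CCR4-NOT deadenylase complex to the transcript, which shortens its life.

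The YTHDF2 list, the m6A list and the genotype comparison are each 1 file for a group or pair of groups, with no value per library. Spread between replicates and the depth of each library are therefore unknown here, and the intervals below (95% Wilson) cover counting error only. Every placed row of the YTHDF2 list has a name that begins with "m6a_peak", numbered up to 25487, although the file is named for YTHDF2. Which libraries stand behind the list cannot be told apart from its contents, and all peak results below rest on it. The antibody field of the labels also reads the same for input and immunoprecipitated YTHDF2 libraries. The macrophage label was borne out by its markers: 15 of 15 macrophage genes were tested in the authors' deposited table of the genotype comparison, and 10 of them carried a coding-sequence peak. Of the 15, 2 passed an adjusted p of 0.05 with a positive and 3 with a negative change between genotypes in the authors' deposited table. Over all tested genes these shares were 1.76% and 0.557%, so the markers themselves often differed between genotypes. In the authors' deposited table the log2 fold changes were 0.40 for Cd68 and 0.59 for Lgals3. They were −1.49 for Lyz2, −0.78 for Mrc1 and −0.55 for Itgam. None of the 7 lists for other cell types had a member with a coding-sequence peak. Of these lists, 0 of 8 dendritic, 0 of 6 mast, 1 of 6 erythroid, 1 of 9 T or NK, 2 of 7 B, 4 of 10 neutrophil and 4 of 7 fibroblast markers reached the abundance at which the authors' deposited table gives an adjusted p. Named after their values were seen, Csf3r of the neutrophil list had a mean normalized count of 8496 and Blnk of the B list 3745 in the authors' deposited table. The log2 fold changes of the neutrophil marker Mmp8 (−0.83, adjusted p = 0.0013) and the fibroblast marker Col1a1 (0.56, adjusted p = 0.049) were called in the authors' deposited table. The part of such cells in the results was not tested.

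Sequence annotated as coding could be read under a summit for 26 of the 6288 peaks. These fall in the windows of a RefSeq promoter table (assembly GRCm38.p6, the coordinates of mm10). Most of these windows belong to an antisense or overlapping gene. The stretch is the part of the coding exon within 50 bases of the summit that the window covers, written in the sense of the coding gene, with each GGAC in capitals. The sequences of 5 peaks that held the motif and 3 that did not follow, to show what such a summit looks like with and without it.

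Card9 (chr2:26357868-26357968, minus strand): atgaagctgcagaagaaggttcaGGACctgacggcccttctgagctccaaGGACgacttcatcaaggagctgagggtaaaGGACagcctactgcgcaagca
Akna (chr4:63395104-63395204, minus strand): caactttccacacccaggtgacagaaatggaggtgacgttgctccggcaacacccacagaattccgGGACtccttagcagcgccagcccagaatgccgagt
Casz1 (chr4:148952446-148952546, plus strand): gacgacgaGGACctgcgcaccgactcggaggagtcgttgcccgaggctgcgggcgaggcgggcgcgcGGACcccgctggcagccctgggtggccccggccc
Trak1 (chr9:121454280-121454353, plus strand): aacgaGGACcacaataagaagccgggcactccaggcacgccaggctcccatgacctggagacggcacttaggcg
Lzts3 (chr2:130635254-130635354, minus strand): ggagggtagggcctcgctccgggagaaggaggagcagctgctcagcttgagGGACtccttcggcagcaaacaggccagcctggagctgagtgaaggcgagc
Pi4kb (chr3:94984128-94984228, plus strand): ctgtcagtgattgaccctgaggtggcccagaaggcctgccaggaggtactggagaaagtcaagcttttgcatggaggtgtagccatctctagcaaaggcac
Tnk2 (chr16:32668222-32668285, plus strand): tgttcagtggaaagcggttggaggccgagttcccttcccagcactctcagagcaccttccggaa
Aldh3b1 (chr19:3918751-3918851, minus strand): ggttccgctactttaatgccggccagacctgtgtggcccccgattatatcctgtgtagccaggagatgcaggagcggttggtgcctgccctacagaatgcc

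Card9, the adaptor that carries signals from fungal receptors to NF-κB, had GGAC 3 times in the stretch printed. Its peak (fold enrichment 2.67) lay in a coding exon of 304 nt and overlapped an m6A peak. Akna, a centrosomal protein, had 1 GGAC, and its peak (2.28-fold) in an exon of 1048 nt also overlapped m6A. Pi4kb, a phosphatidylinositol 4-kinase, had no GGAC in its stretch, and its peak (2.69-fold) also overlapped m6A. So did the peaks of Tep1, Capn15 and Hnrnpll, likewise without GGAC on the sense strand of their stretches. With Card9 and Akna, these were all 6 of the 26 peaks that overlapped m6A. Casz1, a zinc-finger factor, had 2 GGAC and a 5.98-fold peak without m6A overlap. The peak of Tnk2, a cytoplasmic tyrosine kinase, was 11.3-fold, with neither GGAC in the printed stretch nor m6A overlap. Over the 26 stretches, with a median length of 78 bases, GGAC was found in 9 (34.6%, interval 19.4 to 53.8%) on the sense strand and in 13 on either strand. The first 78 bases of 32851 promoter windows held it in 24.1% on the strand of their gene and in 42.7% on either. GGACT, which contains GGAC, was in 3 of the 26 and AAACA in 1 of 26, against 7.14% and 11.4% of the promoter windows. So few stretches, all near annotated transcription starts, are a description of these peaks and not of coding-sequence peaks at large.

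Coding sequence held 35.7% of the placed summits (interval 35.0 to 36.4%), slightly fewer than the 3′ UTR (39.2%) and more than introns (23.1%) or the 5′ UTR (2.02%). Of the 6288, 6017 had a summit in no other class, 247 also lay in an intron of another transcript and 24 in a 5′ UTR. The order of classes moved 224 summits that lie in both into the 3′ UTR. At 65 summits the coding sequence of more than 1 gene overlapped, so the gene is uncertain there. The listed transcript was of another type than mRNA, such as a pseudogene, for 130 peaks. Coding sequence and the lengths of coding exons are as the list annotates them throughout. They were not checked against another annotation, so some untranslated sequence may be counted as coding.

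The enrichment of coding-sequence peaks was close to that of 3′ UTR peaks. The fold enrichment of a peak is the authors' own value for it. Its median was 2.94 in coding sequence (quartiles 2.41 and 3.66, range 1.39 to 14.9), against 2.91 in the 3′ UTR, 2.81 in the 5′ UTR and 3.36 in introns. Peaks of 5-fold or more made up 6.36% of coding-sequence peaks (400), 5.88% of 3′ UTR peaks and 12.9% of intron peaks. Coding sequence held 38.6% of the quartile group of all placed peaks with the lowest fold and 31.8% of the quartile group with the highest. No test was made between classes, because peaks of 1 list are not replicates.

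**Figure D1:**
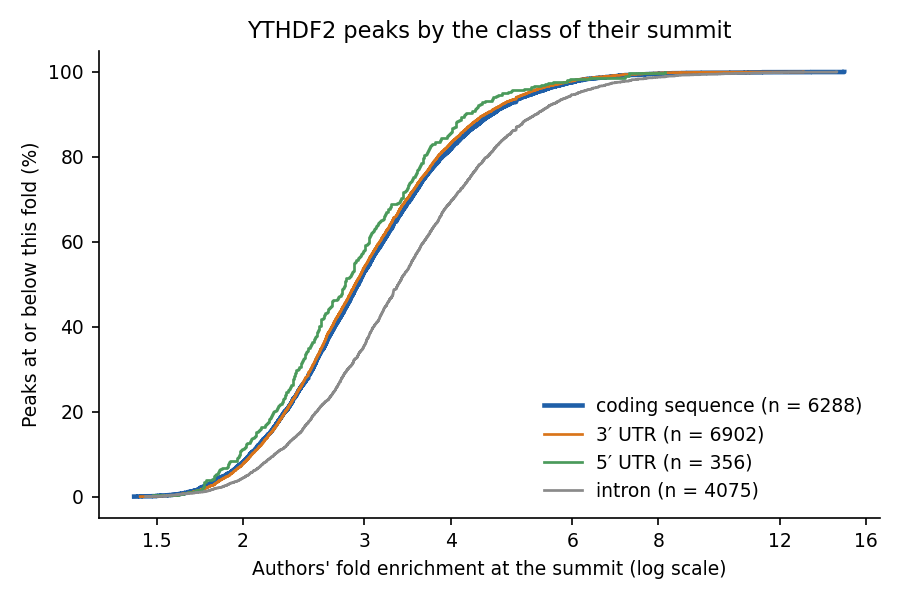
Share of peaks (%, vertical axis) at or below each fold enrichment (horizontal axis, log scale) for summits in coding sequence (6288), 3′ UTR (6902), 5′ UTR (356) and intron (4075). The coding-sequence and 3′ UTR lines lie almost on each other, with medians of 2.94 and 2.91, and the intron line lies to their right, with a median of 3.36.

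Coding-sequence peaks were short regions that seldom stopped at the exon. Their median width was 345 bp (quartiles 248 and 535), against 498 bp for 3′ UTR peaks and 312 bp for intron peaks. A median of 54.2% of a peak's bases were coding, 79.4% of the peaks reached into an intron, 23.1% into a 3′ UTR and 6.82% into a 5′ UTR, while 907 (14.4%) were coding throughout. Most (84.1%) touched 1 coding exon, 11.4% touched 2 and 4.48% touched 3 or more. The peak with most was in Ncaph2, a condensin II subunit, and spanned 11 coding exons (chr15:89369191-89371449). The widest lay in Plec, the cytoskeletal linker plectin, with 8499 bp (chr15:76171144-76179642), of which 86.3% was coding, followed by Spen, a transcriptional repressor and RNA-binding protein, with 6971 bp (chr4:141472541-141479511) and 98.2% coding.

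The 10 genes with the highest peak, counted with 1 peak per gene, were mostly transcripts of low abundance. Their highest peaks sat on exons of 92 to 440 nt, and none of these 10 peaks overlapped m6A. Of all coding-sequence peaks in the highest quartile group of fold, 18.9% did, so so few peaks show little on this. The authors' fold was highest in Fam91a1 (listed under the older name D15Ertd621e; chr15:58429809-58430210), a protein of vesicle tethering at the trans-Golgi, with 14.9. Psmg2, a proteasome assembly chaperone, followed with 13.3. Pam, which amidates peptide hormones (chr1:97825863-97826191), and Klhl12, a substrate adaptor of a cullin 3 ubiquitin ligase (chr1:134486853-134487125), both had 11.3. Tnk2 had 11.3, Trp53bp2, a p53-binding protein, 10.8, and Vwf, von Willebrand factor, 10.7 (chr6:125677727-125678009). The chromatin remodelling ATPase Smarca2 had 10.4 (chr19:26751670-26751947), Klhl21 9.61 and Mkks, a chaperonin-like protein, 9.24. Vwf carried 7 coding-sequence peaks in 6 exons, from 2.82 to 10.7-fold.

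These 10 genes had mean normalized counts of 85.7 (Fam91a1) to 1006 (Vwf) in the authors' deposited table, where the median of tested genes was 739 and 9 of the 10 lay below it. The tested genes were divided into 4 quartile groups by that count, which is not divided by transcript length. From the lowest quartile group to the highest, the median fold of coding-sequence peaks was 4.03, 3.40, 3.05 and 2.65. Among the listed peaks, the fold was thus lower where abundance was higher. The lower quartile of fold was 3.20 in the lowest group (358 peaks) and 2.21 in the highest (2883 peaks). The part that the cut-off for listing a peak had in this order was not tested. Nor was the part of abundance in the other comparisons of fold.

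Coding-sequence peaks overlapped WT m6A peaks more often than peaks of the other classes did. An overlap of at least 1 bp was found for 1912 coding-sequence peaks (30.4%, interval 29.3 to 31.6%), against 23.2% of 3′ UTR peaks (interval 22.2 to 24.2%), 21.9% of 5′ UTR peaks (17.9 to 26.5%) and 11.3% of intron peaks (10.3 to 12.3%). The summit itself lay inside an m6A peak for 19.8% of coding-sequence peaks, against 11.3%, 12.6% and 6.72%. Of the 10290 m6A peaks, 9293 could be placed on a chromosome through their gene, and an overlap with the others was not counted. Each m6A peak was taken as its whole span, which can cross introns, as in Dst (chr1:34197253-34200967). With m6A peaks of at most 1000 bp span, 20.6% of coding-sequence peaks overlapped one. The part of such spans in the order of classes was not tested. Whether introns were searched for m6A as exons were is not stated, so the intron share may not compare with the others. The m6A list is independent of how the classes were made, but both moved with abundance. From the lowest quartile group of tested genes by mean normalized count to the highest, 11.4%, 30.3%, 42.2% and 55.1% of genes had a coding-sequence peak, and 10.9%, 26.3%, 33.6% and 33.0% of these peaks overlapped m6A.

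Among coding-sequence peaks, m6A overlap was less frequent where the authors' fold was higher. From the lowest quartile group of fold to the highest, the share was 39.1%, 35.2%, 28.4% and 18.9%. The median length of the coding exon moved with it, at 355.5, 284, 234 and 219 nt, while the median width of the peaks was 348, 358, 344 and 333 bp. The part of exon length in this order was not tested.

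Coding-sequence peaks in long exons overlapped m6A far more often than those in short exons. The share overlapping m6A was 13.7% in coding exons up to 100 nt, 18.4% up to 150 nt, 22.2% up to 200 nt, 16.1% up to 300 nt and 24.3% up to 400 nt. It was 48.4% in exons of 400 to 1000 nt, 59.4% up to 2000 nt and 54.4% above 2000 nt. The largest difference between neighbouring classes was that across 400 nt, a boundary set by the classes used. The class above it runs to 1000 nt, so the place of the rise within it is not resolved. Beyond 1000 nt the intervals of neighbouring lengths overlapped. In exons over 400 nt, 1174 of 2221 peaks overlapped m6A (52.9%, interval 50.8 to 54.9%), against 738 of 4067 in shorter exons (18.1%, interval 17.0 to 19.4%), a difference of 34.7 percentage points.

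Width and abundance also differed between these exons, and the difference was measured within each. Peaks in the 3 classes of exon over 400 nt had median widths of 454.5, 489 and 493.5 bp, and those in the 5 shorter classes 256 to 344 bp. Among peaks of at most 300 bp, 36.3% in long exons and 12.8% in shorter ones overlapped m6A. Counting only m6A peaks of at most 1000 bp span, the shares for all coding-sequence peaks were 39.0% and 10.6%. By quartile groups of mean normalized count from low to high, long exons had 16.7%, 39.4%, 58.6% and 65.6%, against 5.79%, 16.2%, 19.1% and 19.6% in shorter exons. The direction was the same in each quartile group, and the difference was 10.9 points in the lowest and 46.0 points in the highest.

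**Figure D2:**
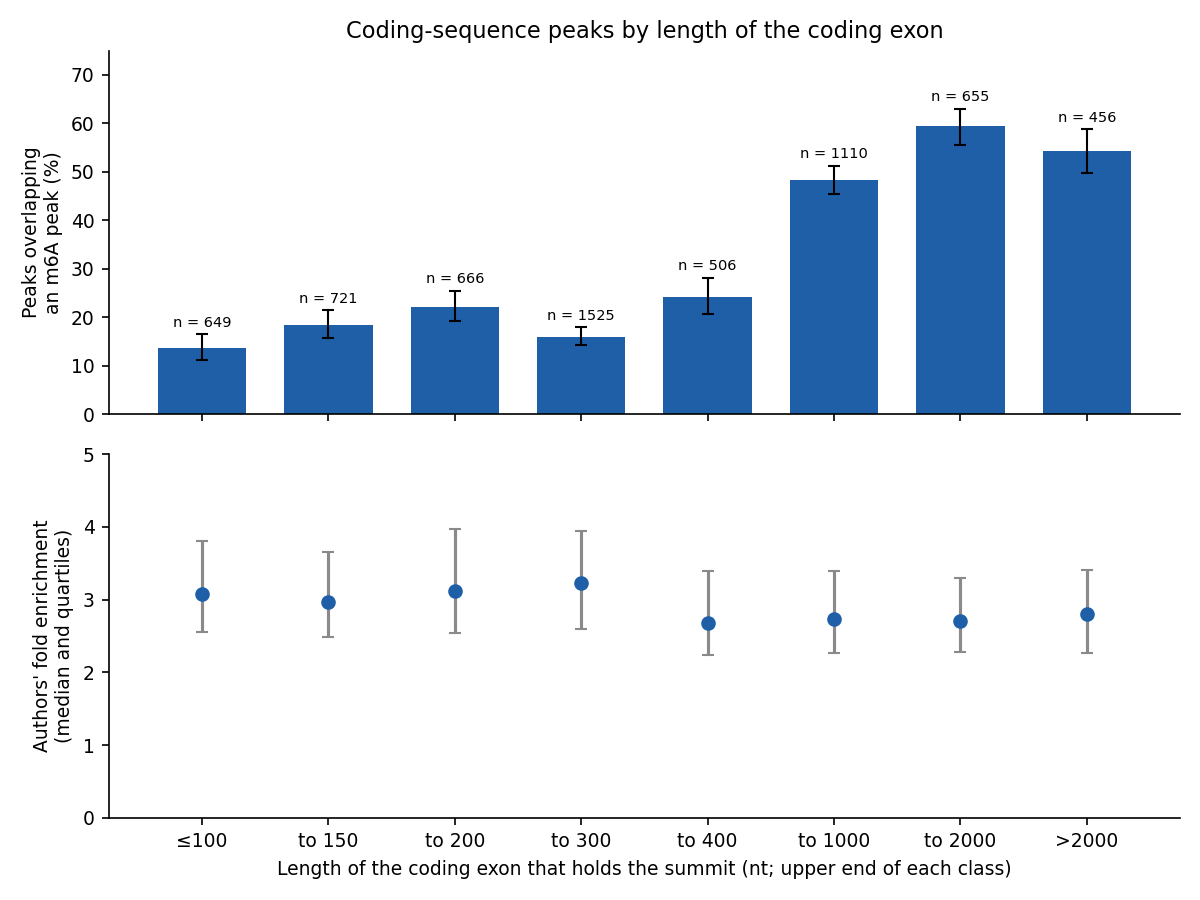
Upper panel, share of coding-sequence peaks that overlap a WT m6A peak (%, bars, with 95% Wilson intervals and the number of peaks) by length of the coding exon holding the summit (nt); lower panel, the authors' fold enrichment (median and quartiles) of the same peaks. The share is at most 24.3% up to 400 nt and at least 48.4% above it, while the median fold lies between 2.68 and 3.22 throughout.

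Coding-sequence summits were also placed in the first or last coding exon where the list allowed it. The list numbers coding exons by genome coordinate, so the exon with the stop codon can be told for genes on the minus strand and the exon with the start codon for genes on the plus strand. On the minus strand, 1322 of 3346 summits (39.5%) fell in the last coding exon, and on the plus strand 396 of 2942 (13.5%) fell in the exon with the start codon. No background over all coding exons was at hand, so whether these shares are high or low was not tested. The 1322 summits in the last coding exon had a median distance of 132 nt from the end of the coding sequence. Of these 1322, 532 (40.2%) lay within 100 nt of that end and 1009 (76.3%) within 400 nt. Those in the start-codon exon lay a median of 374.5 nt downstream of the start codon. Over the 1322 summits, the last coding exon had a median length of 226 nt, which bounds the distance from its end. Some summits of the named genes lay at the upstream edge of their exon, as in Ranbp2 (chr10:58485681), and others further inside. How often this was so was not counted, and its part in these distances was not tested.

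Terminal exons overlapped m6A more than other coding exons of their strand. The share was 39.1% in the last coding exon, against 23.5% in other exons of minus-strand genes, and 42.9% in the start-codon exon, against 29.5% in other exons of plus-strand genes. Start-codon exons with a summit were long, with a median of 912.5 nt. For exons up to 400 nt the shares were 27.2% in the last coding exon and 11.3% in the other exons of minus-strand genes, and 21.7% in the start-codon exon and 19.1% in the other exons of plus-strand genes. For exons over 400 nt they were 58.7% and 49.5% on the minus strand, and 48.6% and 53.7% on the plus strand. The order between start-codon exons and the rest thus turned round with exon length, with overlapping intervals in both lengths.

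Close to the stop codon the share was lower than further inside long last exons. It was 28.8% below 50 nt from the end of the coding sequence, 27.9% from 50 to 100 nt, 35.6% up to 200 nt, 46.4% up to 400 nt, 56.8% up to 800 nt and 57.9% beyond. Exon length moved with distance, since a summit can be far from the stop codon only in a long exon: the median exon was 117 nt in the nearest class and 2143 nt in the farthest.

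**Figure D3:**
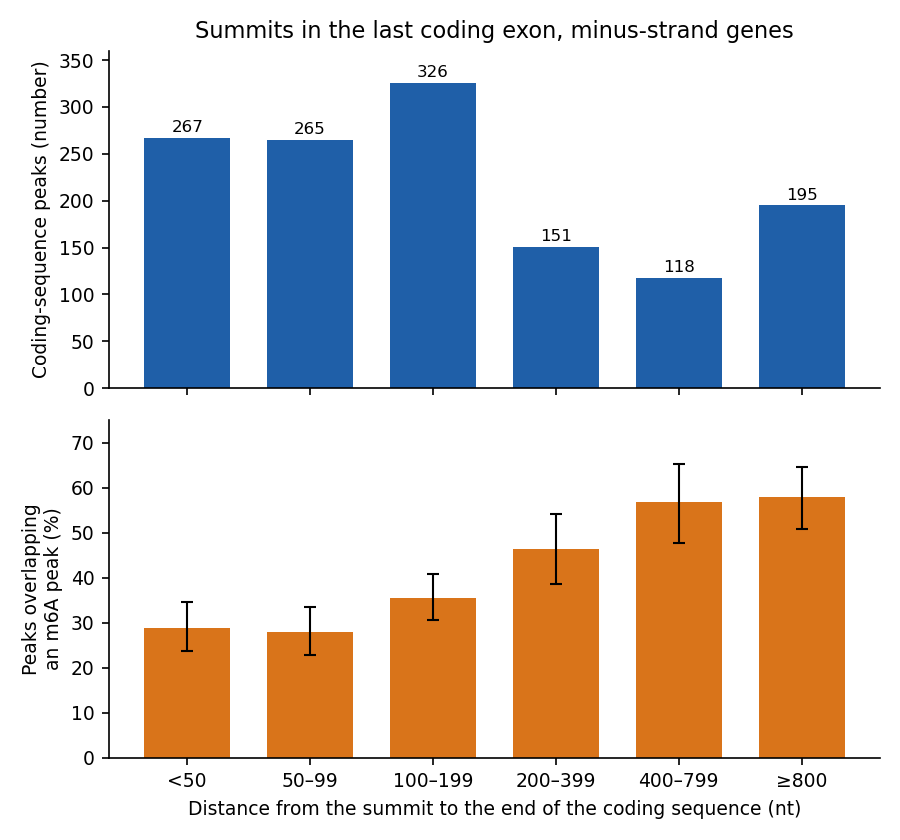
Coding-sequence peaks with a summit in the last coding exon of minus-strand genes, by distance from the summit to the end of the coding sequence (nt): their number (upper panel) and the share overlapping a WT m6A peak (%, lower panel, with 95% Wilson intervals). Of the 1322 peaks, 532 lay within 100 nt, and the share was 28.8% in the nearest class and 57.9% in the farthest.

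Some exons held several summits. The 6288 summits fell in 5910 coding exons, of which 5616 held 1, 235 held 2 summits and 59 held 3 or more, with a median gap of 804 nt between neighbours. Hivep1, a zinc-finger transcription factor, had 7 summits in 1 exon of 5938 nt (chr13:42154381-42160318), with folds from 2.06 to 2.88, and 2 of its peaks overlapped m6A. Zfp292, another zinc-finger protein, had 6 in its exon of 7082 nt (chr4:34804962-34812043), with folds from 2.01 to 3.72, and all 6 overlapped m6A. Stard9, a kinesin with a lipid-binding domain, had 6 in an exon of 9836 nt, 3 with m6A. Zfhx3, a homeobox factor, had 5 in an exon of 5453 nt and none with m6A, so that exons of like length differed in their overlap.

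Most genes had a single coding-sequence peak: 2517 of the 3843 had 1, 807 had 2, 519 had 3 or more and 136 had 5 or more. In 1364 genes (35.5%) every YTHDF2 peak lay in coding sequence, and 1886 (49.1%) also had a 3′ UTR peak. Within those 1886 genes the highest coding-sequence fold exceeded the highest 3′ UTR fold in 945 (50.1%). In the 782 genes with exactly 1 peak of each kind, the median log2 ratio of coding-sequence over 3′ UTR fold was −0.02 (quartiles −0.33 and 0.28), so neither place had the higher fold in general.

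The genes with most coding-sequence peaks encode large proteins. Macf1, which links actin and microtubules, had 18 in 16 exons, with folds from 1.85 to 5.52, and 9 of them overlapped m6A. Its relative Dst, dystonin, had 14, of which 6 overlapped m6A. Lrp1, the endocytic receptor for apolipoprotein E and protease complexes, had 16 in 16 exons, from 1.71 to 3.07-fold, and 0 overlapped m6A. The ubiquitin ligases Rnf213, Herc1 and Ubr4 had 14, 13 and 11, with 3, 1 and 0 overlapping m6A. The dynein heavy chain Dync1h1 had 13 and the sialic acid receptor Siglec1, a marker of macrophages, had 11, none with m6A in either gene.

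Exon length differed along the same genes. All 16 summits of Lrp1, all 11 of Ubr4 and all 11 of Siglec1 lay in exons of at most 400 nt. In Macf1, 5 of 18 lay in longer exons, among them 3 in an exon of 5330 nt, and in the histone methyltransferase Kmt2d (listed as Mll2) 7 of 11 did, where 5 peaks of the gene overlapped m6A. The folds of Herc1 ran from 1.67 to 6.31, those of Ubr4 from 2.14 to 4.49 and those of Siglec1 reached 2.37. None of these 9 genes passed the genotype test in the authors' deposited table (adjusted p from 0.630 for Dst to 0.997 for Lrp1 and Dync1h1). Only 2.32% of all tested genes did, so the absence of a call among 9 genes shows little.

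**Figure D4:**
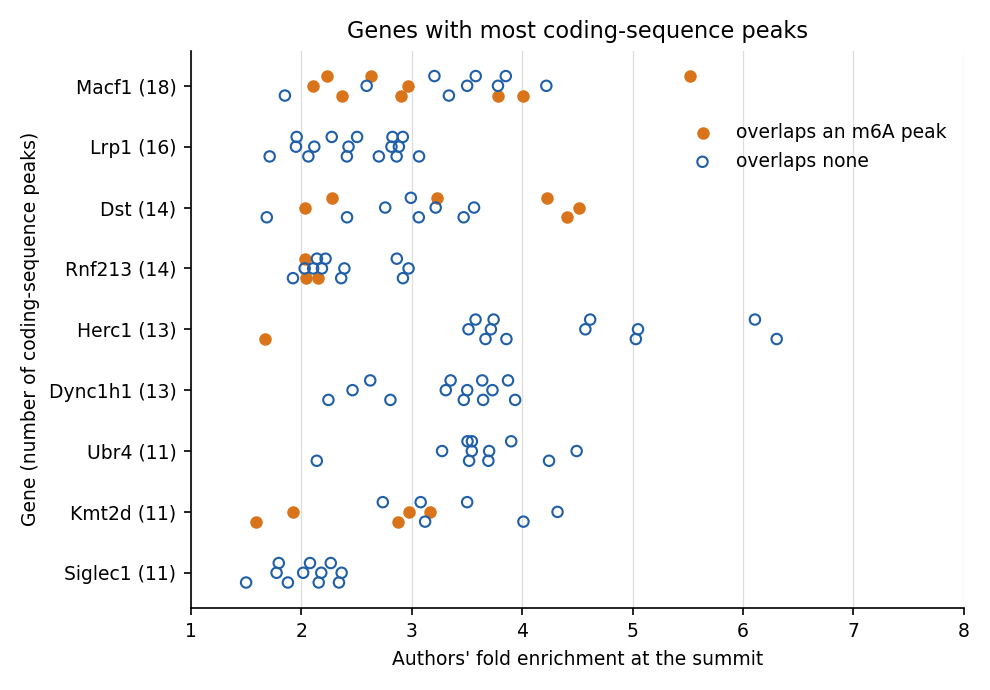
The authors' fold enrichment (horizontal axis) of each coding-sequence peak in 9 genes with most of them (rows, number of peaks in brackets); filled points overlap a WT m6A peak, open points do not, and vertical scatter within a row only separates points. Macf1 has 18 peaks of which 9 overlap m6A, Lrp1 has 16 of which 0 do, and Herc1 reaches 6.31-fold.

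The gene groups below are lists of macrophage and housekeeping functions. Each is described by its members with a coding-sequence peak and by the genotype test over all genes, whose call is an adjusted p under 0.05 from the authors' Wald test. Over all 10778 tested genes, 2.32% were called, 1.76% with a positive and 0.557% with a negative log2 fold change. A coding-sequence peak was present in 34.7% of them, more often where abundance was higher, and 30.4% of all coding-sequence peaks overlapped m6A. The counts of each list stand beside these shares. The part of abundance and transcript length in them was not tested. Which genotype is on top of the fold change is not stated in these sources. Ythdf2, the targeted gene, had no coding-sequence peak and was itself positive in the authors' deposited table, with a log2 fold change of 1.10 ± 0.16 (SE, adjusted p = 2.1e-09). A positive value below therefore means only the same sign as Ythdf2. Whether that sign is the higher level in WT or in cKO cells was not tested.

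Interferon-induced genes were the list with most calls of the 13 described. Of 30, 20 carried a coding-sequence peak (44 peaks, 14 with m6A overlap), and 12 of the 30 were called positive and 0 negative in the authors' deposited table, 9 of the 12 with such a peak. The list's median log2 fold change was 0.31, against −0.01 over all tested genes, in the authors' deposited table. Ifit3, an interferon-induced antiviral protein, had 2 peaks in its exon of 1206 nt, both overlapping m6A, the higher 3.13-fold (chr19:34587452-34587903). Its log2 fold change was 0.56 ± 0.13 (SE, adjusted p = 0.0018) in the authors' deposited table. Gbp5 and Gbp7, guanylate-binding proteins of cell-autonomous defence, had 3.08 and 3.01-fold peaks. In the authors' deposited table they stood at 0.64 ± 0.12 (SE, adjusted p = 4.9e-05) and 0.40 ± 0.12 (SE, adjusted p = 0.038). From the p-values of the authors' deposited table, Gbp7 was not called without the filter on low counts (adjusted p = 0.094), nor with centred fold changes (adjusted p = 0.090). Dhx58, a regulator of the RIG-I sensor, had a 3.12-fold peak and was at 0.04 ± 0.11 (SE), not called, in the authors' deposited table. Ifit3 and the Gbp genes have close paralogues between which reads can be shared, so their values are uncertain to that extent.

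Signal transducers of macrophages also carried coding-sequence peaks. Of 21 interferon receptors, kinases and factors, 12 had one, and 0 of the 19 tested were called in the authors' deposited table, against 2.32% of tested genes. Nlrc5, the activator of MHC class I genes, had 5, from 2.28 to 3.27-fold, the widest on an exon of 1662 nt with m6A. Irf7, the master factor of interferon production, had 3, and the interferon receptor chain Ifnar2 had 3, in all cases without m6A.

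Of 29 NF-κB and Toll-like receptor genes, 17 had a coding-sequence peak (28 peaks, 13 with m6A) and 1 was called positive in the authors' deposited table. Nfkb2, which gives the p52 subunit, reached 4.38-fold on an exon of 81 nt. Relb, its partner, had 4 peaks up to 3.48-fold, none with m6A. The kinase Irak2 had 1 peak of 3.46-fold, and Traf3, a brake on non-canonical signalling, 1 of 3.32-fold with m6A (chr12:111261453-111261869).

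Of 28 cytokines and effector enzymes, 8 carried a coding-sequence peak, 10 peaks in all, with a median fold of 1.83. Of the 27 tested, 8 had one, against 34.7% of tested genes. Called positive in the authors' deposited table were 4 of the 27, 1 of them with a coding-sequence peak, and 1 was called negative, against 1.76% and 0.557% of tested genes. Nos2, the inducible nitric oxide synthase, had 2 (2.10 and 2.83-fold) in exons of 194 and 207 nt. Ccl3, a chemokine, and Tnf had 1 each, at 1.99 and 1.86-fold, and both overlapped m6A. In the authors' deposited table Nos2, Ccl3 and Tnf were at 0.24 ± 0.14, 0.25 ± 0.17 and 0.24 ± 0.16 (SE) and were not called.

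Chromatin regulators carried 102 coding-sequence peaks in 25 of 27 genes, and 33 of the peaks overlapped m6A, against 30.4% of all coding-sequence peaks. Chd7, a remodelling ATPase, had 8 from 3.57 to 7.25-fold, 3 with m6A, and Chd8 had 6. Arid1b, a subunit of the BAF complex, had 2 in 1 exon. Large cytoskeletal proteins carried as many, 102 in 20 of 24 genes, with 30 overlapping m6A. Utrn, the dystrophin relative utrophin, had 2 (5.10 and 6.26-fold), and Sptbn1, a spectrin, had 9, of which 3 overlapped m6A. No member of either list was called in the authors' deposited table.

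Giant ubiquitin ligases and cullins had 94 coding-sequence peaks in 17 of 21 genes, but only 11 of the 94 overlapped m6A. Cul9 reached 8.01-fold, Herc2 6.59-fold and Cul7 6.48-fold, with 5, 7 and 2 peaks and none with m6A. Genes of membrane traffic and lysosomes were alike in this, with 68 peaks in 19 of 29 genes and 5 of the 68 overlapping m6A. The PI3K-related kinases and their partners had 20 in 8 of 14 genes, 4 with m6A, among them 6 in the scaffold Trrap and 7 in Smg1, the kinase that starts nonsense-mediated decay. None of these lists had a gene with a coding-sequence peak that was called in the authors' deposited table.

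The translation machinery had 45 coding-sequence peaks in 16 of 22 genes, 13 with m6A. Eif4g3, a scaffold of the cap-binding complex, had 6, of which 3 overlapped m6A, and Eprs, a tRNA synthetase, had 3, of which 2 did. Nuclear pore genes had 10 in 5 of 14 genes. Ranbp2, a pore filament protein, had 4 of these, up to 4.98-fold, and 3 overlapped m6A. No member of either list was called in the authors' deposited table.

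Of the m6A machinery, 12 of 24 genes had a coding-sequence peak, and 12 of the 19 peaks overlapped m6A. The writer subunit Zc3h13 had 3, all in exons over 400 nt, from 2.90 to 4.62-fold and 2 with m6A. Rbm15b, which guides the writer, had 1 peak of 3.62-fold with m6A in its exon of 2982 nt. The nuclear reader Ythdc1 had 1 of 3.38-fold without m6A. None of these 12 genes was called in the authors' deposited table. Of 35 mRNA decay genes, 16 had a coding-sequence peak, 23 in all and 5 with m6A. Smg6, the endonuclease of nonsense-mediated decay, had 3 up to 7.62-fold, and Patl1, a decapping activator, had 2 of which 1 overlapped m6A.

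In the genotype comparison, genes with a coding-sequence peak were called a little more often than tested genes at large, and on the positive side. Of the 3843 genes, 3745 had an adjusted p in the authors' deposited table, 53 were listed without one and 45 were not in it. Of the 3745, 112 were called (2.99%), against 2.32% of all 10778 tested genes. Positive in the authors' deposited table were 101 (2.70%, against 1.76% of tested genes) and negative 11 (0.294%, against 0.557%). Their median log2 fold change in the authors' deposited table was 0.02, against −0.01 over all tested genes. When fold changes of the authors' deposited table were centred on the most abundant 25% of genes, a shift of 0.04, the split was 77 positive and 19 negative. These were 2.06% and 0.507% of the 3745, and 2.56% in all. Of tested genes 2.05% were then called, 1.35% positive and 0.696% negative.

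Other call rules gave the same order between the directions. Asking also for at least 1.5-fold, 55 genes with a coding-sequence peak were called in the authors' deposited table (1.47% of 3745), 52 positive (1.39%) and 3 negative (0.0801%). Of all tested genes 1.35% were called, 1.07% positive and 0.278% negative. The total shares were thus close. With p-values of the authors' deposited table adjusted over all 27013 genes, 79 of 3798 were called (2.08%), 74 positive (1.95%) and 5 negative (0.132%). Over all 27013 genes, of which 10778 had an adjusted p from the authors, the shares were 0.666%, 0.529% and 0.137%. Most of the 27013 thus had no adjusted p from the authors, unlike the 3798, so these shares do not compare directly.

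Genes with a coding-sequence peak were more abundant than the others, with a median mean normalized count of 1383 against 479 in the authors' deposited table, and calls were more frequent among abundant genes. From the lowest quartile group of mean normalized count to the highest, in the authors' deposited table, 0.651%, 1.84%, 1.58% and 5.19% of them were called, against 0.503%, 1.86%, 2.44% and 4.38% of tested genes without one. The order between the sets was thus not the same in every quartile group. The negative calls in the same quartile groups of the authors' deposited table numbered 0, 0, 2 and 9 among genes with a coding-sequence peak and 2, 14, 17 and 16 among those without.

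Genes whose summit lay in a long coding exon were called more often than the rest. In the authors' deposited table, 65 of 1531 genes with a summit in an exon over 400 nt were called (4.25%, 61 positive and 4 negative), against 47 of 2214 with summits in shorter exons only (2.12%, 40 positive and 7 negative). The median log2 fold change in the authors' deposited table was 0.07 for the long exons and −0.01 for the shorter ones. By quartile groups of mean normalized count from low to high, 1.35%, 2.81%, 2.97% and 7.03% of the long-exon genes were called in the authors' deposited table, against 0%, 1.09%, 0.602% and 4.09%. The share was higher for long exons in each quartile group; the difference between the sets was not tested.

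Overlap with m6A did not divide the calls in the same way. Of 1471 genes with a coding-sequence peak overlapping m6A, 45 were called in the authors' deposited table (3.06%), against 67 of 2274 with none overlapping (2.95%). Among long-exon genes the shares in the authors' deposited table were 3.72% with m6A at a long exon and 5.02% without. The median log2 fold changes of these sets in the authors' deposited table were 0.08 and 0.04, and for genes with summits in shorter exons only 0.01 with and −0.02 without m6A. Genes with both a coding-sequence and a 3′ UTR peak had 73 of 1868 called in the authors' deposited table (3.91%, 70 positive), and genes whose peaks all lay in coding sequence 27 of 1295 (2.08%, 25 positive). Their median mean normalized counts in the authors' deposited table were 1679 and 828, so abundance moved with this difference too, and its part was not tested.

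The positive genes with the largest changes were a varied set, and 7 of the 10 named had a summit in a coding exon over 400 nt. Of all 3745 tested genes with a coding-sequence peak, 1531 had one. The pseudogene Gm15590 led with 2.37 ± 0.60 (SE, adjusted p = 0.0065) in the authors' deposited table; it is listed as a processed pseudogene, so its reads may come from a parent gene. Plcxd2, a phosphodiesterase-like protein with 3 coding-sequence peaks up to 6.22-fold, followed at 1.14 ± 0.18 (SE, adjusted p = 6.6e-07) in the authors' deposited table. The endocytic receptor Ly75 (DEC-205), with 2 peaks in short exons, was at 0.97 ± 0.20 (SE, adjusted p = 0.00040), and Rassf8 at 0.93 ± 0.20 (SE, adjusted p = 0.00044), in the authors' deposited table. The peak of Rassf8 in its exon of 889 nt overlapped m6A (chr6:145814892-145815815).

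Of the remaining genes in the 10 with the largest positive change, Il7r, the interleukin 7 receptor chain, had 1 peak on its last coding exon (chr15:9507345-9508432, 1.88-fold, overlapping m6A). It was at 0.84 ± 0.14 (SE, adjusted p = 1.3e-06) in the authors' deposited table. Spp1, the secreted phosphoprotein osteopontin, had 1 peak of 1.68-fold and was at 0.84 ± 0.16 (SE, adjusted p = 3.5e-05) in the authors' deposited table. Fcho1, Adra1a, C77080 and Tusc1 had values from 0.83 to 0.91 in the authors' deposited table. C77080 had 2 summits in 1 exon of 2501 nt. Vwf, among the peaks of highest fold, was called as well, at 0.64 ± 0.18 (SE, adjusted p = 0.018) in the authors' deposited table.

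The negative genes changed less, and 6 of the 9 named had summits in short exons only. So did 2214 of all 3745 tested genes with a coding-sequence peak, a share near that of the 9. Sema4c, a transmembrane semaphorin, was at −0.91 ± 0.16 (SE, adjusted p = 7.5e-06) in the authors' deposited table. Its peak of 4.72-fold lay in an exon of 829 nt with the summit inside an m6A peak (chr1:36549123-36550469). Rab3il1, an exchange factor for Rab proteins, was at −0.61 ± 0.14 (SE, adjusted p = 0.0016) and the ribosomal protein gene Rpl3 at −0.60 ± 0.17 (SE, adjusted p = 0.025) in the authors' deposited table. Rpl3 has processed copies that can share its reads. Pygl, the liver glycogen phosphorylase, was at −0.50 ± 0.13 (SE, adjusted p = 0.013) in the authors' deposited table. Cdkn1a, the cell-cycle inhibitor p21, had 2 peaks without m6A and was at −0.41 ± 0.11 (SE, adjusted p = 0.013) in the authors' deposited table. Tifab, Cd300ld, Hint1 and Coro1a ranged from −0.49 to −0.38 in the authors' deposited table. Without the filter on low counts, Rpl3, Tifab, Cd300ld, Hint1 and Coro1a were no longer called (adjusted p from 0.062 to 0.115 on the p-values of the authors' deposited table).

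**Figure D5:**
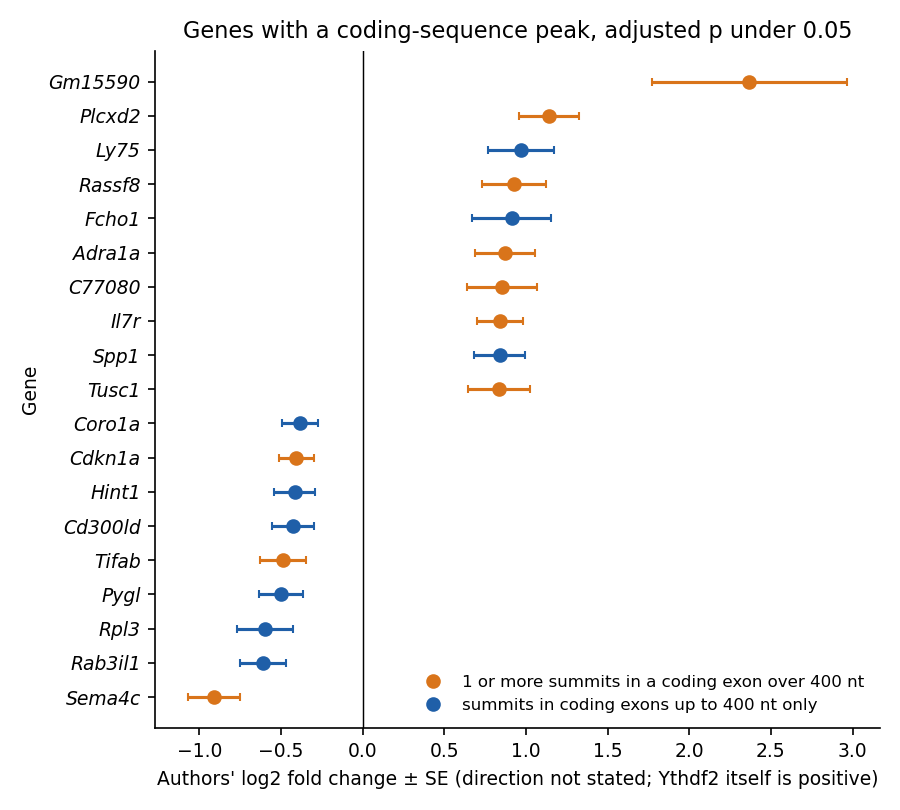
Log2 fold change ± SE (horizontal axis) from the authors' deposited table for the 10 genes with the largest positive change and 9 of those with the largest negative change among called genes with a coding-sequence peak and a mean normalized count of at least 500 (rows); colour tells whether any summit lies in a coding exon over 400 nt. The direction of the comparison is not stated. Gm15590 stands highest at 2.37 and Sema4c lowest at −0.91.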

How the data were processed

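The files used were 3, and none held values per library, so the edgeR fit on counts that had been planned could not be made and the authors' own test was used. The members, gene lists and comparisons were chosen with earlier results of these data known. In the YTHDF2 list the ratio (fold enrichment), the −log10 p and −log10 q and the score are values the authors deposited per peak; replicates had been combined before deposit, and no label or header names the peak caller. Of 45541 rows 3234 were repeats. The comparison table holds, per the file headers, a mean normalized count (a signal the authors averaged over libraries), a log2 fold change with its standard error, a Wald statistic (a score the authors deposited), and a p-value and adjusted p-value the authors deposited. The adjusted values are Benjamini-Hochberg over 10778 genes whose mean normalized count was 48.0 or more. HISAT2, HOMER, ChIPseeker and mm10 are named in the submitters' processing notes without role or version.

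Summits were placed with Python 3.11.15, pandas 2.3.3 and numpy 2.4.6; positions are 1-based, mm10. The list gives 1 transcript per gene. Symbols followed a RefSeq table (GRCm38.p6) where the gene lay within 1000 bp: 6208 of 6288 peaks matched, 548 of them through a synonym. The m6A peaks took their chromosome by the same margin. The functions were tested on simulated data. Genes are named by rule: the 10 genes, with an adjusted p, of the highest peak with −log10 q of at least 5 (1 peak per gene), the 10 genes with most coding-sequence peaks, the 10 largest changes each way among called genes of mean normalized count 500 or more, and up to 4 per list by fold. Items withheld from this text are not reported here. Sequences were described for 50 bases on each side of a summit. Exons with most summits, widest peaks and printed sequences were chosen after their values were seen. No m6A peaks of cKO cells were used here. Depth is unknown, and no value per library allows an error between replicates.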

Additional observations from a re-analysis of the deposited data

How the results depend on the processing

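No paired analysis was possible because the files hold no value per library; for the same reason leaving out replicates, DESeq2 and edgeR were not run. The number of coding-sequence peaks was 2956 at a fold of at least 3 and between 5724 and 6512 under the other 5 settings, against 6288. With −log10 q of at least 5 the median fold was 3.02 and the median width 353 bp. The share of coding-sequence peaks overlapping m6A was 24.8% when 50% of the shorter peak had to overlap, 26.0% for a summit within 100 bp of an m6A peak, 19.8% for a summit inside one, 20.6% with m6A peaks of at most 1000 bp and 23.2% for peaks of at least 3-fold. The difference between long and shorter exons was positive under all 12 alternatives, all chosen after seeing the data, and ranged from 10.9 points (lowest quartile group by mean count) to 46.0 points (highest). Genotype calls numbered 55 with at least 1.5-fold, 27 for genes with all peaks in coding sequence and 49 for genes with a coding-sequence peak of at least 3-fold, against 112, each by construction a smaller set or a stricter rule. Of the named genes, Gbp7 was also no longer called when fold changes were centred (adjusted p = 0.090) or without the filter on low counts (0.094). Transcripts typed mRNA (6158 coding-sequence peaks), m6A peaks placed by Ensembl gene and −log10 q of at least 5 for exon position were added after seeing the data.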
